A study of Arabidopsis thaliana with 12 samples.

Results

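The 6 Arabidopsis thaliana genes described here belong to families of nuclear-encoded proteins that act on RNA or transcription inside chloroplasts and mitochondria. AEF1 (AT3G22150), AT3G51320, AT1G31790, AT3G49740 and AT3G13150 belong to the pentatricopeptide repeat (PPR) family, and AT1G61990 belongs to the mTERF family. They were chosen by name, and each has 1 probe that the platform annotation assigns to exactly 1 gene, out of 3438 features on the arrays and 689 named loci. The choice was made with the change of each gene between the groups already known, so the differences below are descriptions of those values, and no test of that contrast is offered as support. The files and the gene table used here hold no description of protein families, so the family of each locus is general knowledge and could not be checked in the data. The name AEF1 is likewise not in that table and was attached through the locus AT3G22150.

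PPR proteins are helical repeat proteins in which successive repeats contact successive bases of an organelle transcript. Some members of the family stabilise, process or splice such transcripts, and others mark the cytidines that are edited to uridine. AEF1 is named for editing of the chloroplast atpF transcript, which encodes an ATP synthase subunit, and it also acts on the mitochondrial nad5 transcript, which encodes a subunit of respiratory complex I. mTERF proteins are a second family of helical repeat proteins, first known as mitochondrial transcription termination factors, and plant members take part in organelle transcription, splicing and RNA maturation.

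Total RNA came from wild-type plants (ecotype Columbia 0) and was read on 12 arrays, 6 per group. In the staurosporine group, plants stood in water for 4 h and then received staurosporine, a broad inhibitor of protein kinases, for 4 h. In the ascorbate group, staurosporine was given for 4 h and was followed by 4 h of 25 mM ascorbate (vitamin C), a soluble antioxidant that plant cells hold in large amounts. The pH was 5.5 for both, per the labels. The ascorbate group's label gives the staurosporine dose as 2 µM, whereas that of the staurosporine group gives 25 mM, so whether the dose differed is not known. Staurosporine also came first in one group and last in the other. The labels name whole plants without age or tissue, and neither an untreated nor an ascorbate-only group was analysed here. Of 7 green-tissue markers, 5 had a single-gene probe, and all 5 read above 0 on every array. Most of the 689 named loci did so too, so nothing about the tissue is read from this.

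Readings are deposited intensities in relative units from 0 to 100. Array medians ran from 0.169 to 0.486, and 10.3% to 17.3% of probes were listed at exactly 0, although none of the 6 genes was at 0 on any array. Arrays with consecutive numbers within a group (1 and 2, 3 and 4, 5 and 6) resembled each other most, with a Spearman correlation of 0.889 to 0.983, and each of the 12 arrays had its consecutive partner as its closest array in the group. Levels are therefore given as the mean ± SD of 3 averages of consecutive arrays. No label says that arrays came from separate plants, so errors and p-values cover only how arrays differed, and that may be technical. Changes are ascorbate minus staurosporine in log2 intensity, after quantile normalization unless the deposited scale is named. Their standard errors come from a limma fit over all features. That fit treats the 12 arrays as independent, so the errors do not allow for the likeness of consecutive arrays. With consecutive arrays as a random block (correlation 0.54), the error was 1.004 against 0.59 for AEF1. For AT1G31790 it was 0.33 against 0.21, and it was larger for the other genes too. Over averages of consecutive arrays it was smaller for AEF1 and AT1G31790, at 0.39 and 0.19, and larger for the others.

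AT3G51320 and AEF1 were lower after ascorbate, by 0.89 and 2.42 on the log2 scale, as were AT1G31790 and AT3G49740, by 1.24 and 1.65, while AT1G61990 and AT3G13150 were higher, by 1.29 and 1.01. All 6 passed in this fit over 12 arrays (limma, adjusted p under 0.05), 2 of them higher and 4 lower. In the same fit 28.1% of all features passed, 14.0% higher and 14.1% lower, and since these genes were picked with that contrast known nothing is read from their count. Each of the 6 kept its direction in all 13 other settings of the fit. Settings that only block, average consecutive arrays or leave out dim features return the same estimate as the fit on the same scale. Their sign could therefore not differ. The calls were less stable. With the array number as a block, AEF1, AT3G51320 and AT1G31790 passed, against 24.7% of all features. On the deposited scale AT3G51320, AT1G61990 and AT3G13150 passed, against 37.8% of all features. When consecutive arrays were averaged, only AT3G51320 of the 6 passed, against 1.54% of all features.

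**Figure D1:**
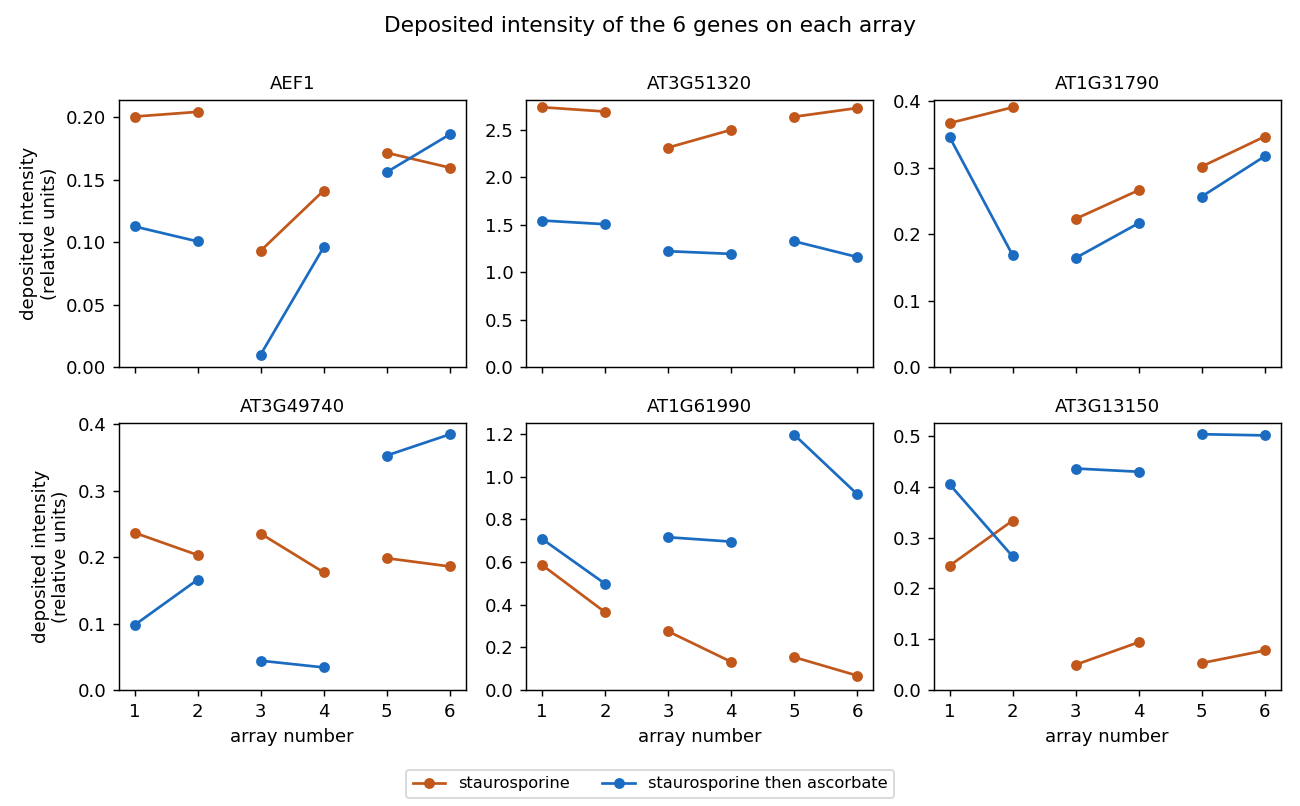
Deposited intensity (relative units, each axis from 0) of each of the 6 genes against array number, with staurosporine in orange and staurosporine then ascorbate in blue, and lines joining consecutive arrays. Only AT3G51320 shows groups that do not overlap, with staurosporine arrays at 2.32 to 2.74 and ascorbate arrays at 1.16 to 1.55.

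AEF1, the editing factor, was dim in both groups. It read 0.0932 to 0.204 on the staurosporine arrays (median 0.166) and 0.010 to 0.186 on the ascorbate arrays (median 0.107), so the groups overlapped in their deposited readings. The level was 0.162 ± 0.0428 with staurosporine and 0.11 ± 0.0592 after ascorbate (SD, n = 3). In rank the groups were apart: AEF1 lay above 29.7% to 45.4% of the probes of its array with staurosporine and above 15.1% to 22.9% after ascorbate. Of all features, 8.46% were lower after ascorbate with no overlap in rank, and since AEF1 was chosen with the contrast known nothing is read from this.

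The fall of AEF1 by 2.42 (SE 0.59) after normalization compared with a change of −0.92 (SE 0.62) on the deposited scale. After normalization AEF1 was lower in all 6 same-numbered pairs of arrays, by amounts from −1.19 to −4.87. On the deposited scale it was lower in 5 of them, and number 6 gave 0.22. The consecutive ascorbate arrays 3 and 4 read 0.010 and 0.0961, a ratio of 9.6, which is larger than the ratio of 1.47 between the mean levels of the groups. Without ascorbate array 3 the normalized change was −1.92, the smallest of the 12 fits that left out 1 array, and AEF1 passed in each of these. Every such fit, for AEF1 and for the genes below, keeps the consecutive partner of the array left out, so it is a weak check.

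Unlike shifts were applied to similar readings of AEF1. At 0.156 on ascorbate array 5 the normalized value lay 2.97 log2 units below the deposited one, whereas at 0.16 on staurosporine array 6 it lay 0.59 above. On ascorbate array 6, AEF1 read 0.186 and lay above 19.9% of probes, while on staurosporine array 4 it read 0.141 and lay above 45.4%. The higher reading thus had the lower rank, on an array whose median was 0.483 against 0.169.

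**Figure D2:**
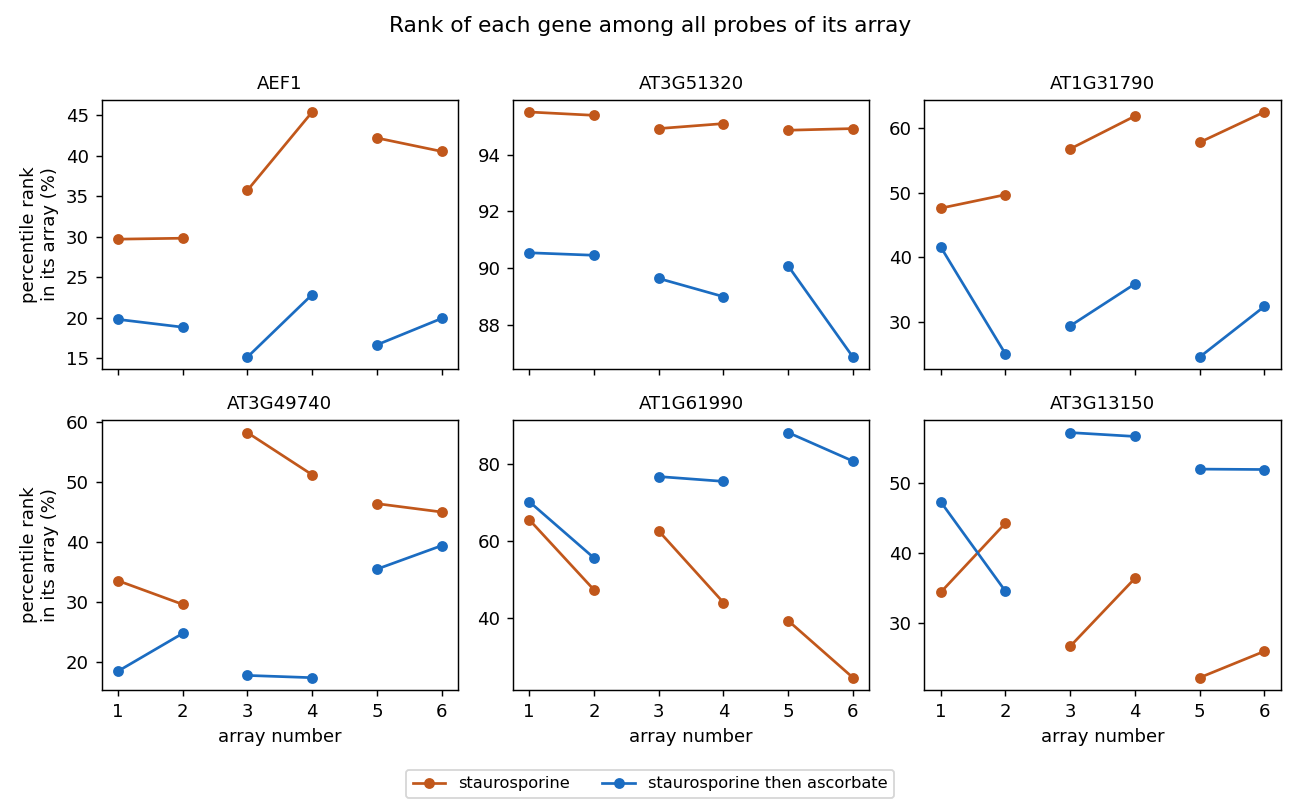
Percentile rank of each of the 6 genes among all probes of its array (percent) against array number, coloured by group, with lines joining consecutive arrays. The groups do not overlap for AEF1, AT3G51320 and AT1G31790, as for 8.46% of all features in the same direction, and they overlap for AT3G49740, AT1G61990 and AT3G13150.

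AT3G51320, a PPR gene, showed the narrowest spread of the 6 on the normalized log2 scale. Its deposited readings were 2.32 to 2.74 with staurosporine (median 2.67) and 1.16 to 1.55 after ascorbate (median 1.27). No ascorbate array reached the lowest staurosporine array. Over all features 4.10% were likewise lower after ascorbate with no overlap of deposited readings. The level fell from 2.61 ± 0.17 to 1.33 ± 0.174 (SD, n = 3), a ratio of 1.96.

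The change of AT3G51320 was −0.89 (SE 0.07) after normalization and −0.98 (SE 0.13) on the deposited scale. It was lower in all 6 same-numbered pairs on both scales, by −0.76 to −1.07 after normalization and by −0.83 to −1.24 as deposited. Its largest ratio between consecutive arrays was 1.14, below the ratio between the groups. Median centring gave a larger change, of −1.74. The gene passed in 11 of 13 other settings and without any 1 array. It did not pass in the 2 settings that took averages of consecutive arrays either with the pair as a block or on the deposited scale.

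AT1G31790, also a PPR gene, read 0.223 to 0.391 with staurosporine (median 0.325) and 0.164 to 0.346 after ascorbate (median 0.237). These ranges overlapped, and the level was 0.316 ± 0.0677 and 0.245 ± 0.0495 (SD, n = 3). Relative to other probes the groups were apart, with ranks of 47.6% to 62.5% and 24.5% to 41.7%, as for 8.46% of all features lower after ascorbate. Ascorbate array 1 had the highest rank of its group and read 0.346, against 0.168 on the consecutive array 2.

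The normalized change of AT1G31790 was −1.24 (SE 0.21), against −0.40 (SE 0.24) on the deposited scale. It was lower in all 6 same-numbered pairs on either scale, by −0.26 to −1.84 after normalization and by −0.09 to −1.22 as deposited. The largest ratio between consecutive arrays, 2.06, exceeded the ratio of 1.29 between the group levels. AT1G31790 passed without any 1 array and in 8 of 13 other settings.

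AT3G49740, the last PPR gene among those lower after ascorbate, had deposited readings that were close together with staurosporine and far apart after ascorbate. In rank both groups were spread, at 29.6% to 58.3% and 17.4% to 39.4%. It read 0.177 to 0.237 with staurosporine (median 0.201). After ascorbate, arrays 1 and 2 gave 0.0978 and 0.166, arrays 3 and 4 gave 0.044 and 0.0339, and arrays 5 and 6 gave 0.353 and 0.385. Ascorbate arrays 5 and 6 thus lay above every staurosporine array and the other ascorbate arrays below, and the levels were 0.206 ± 0.0139 and 0.18 ± 0.17 (SD, n = 3).

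The averages of consecutive arrays of AT3G49740 differed between the groups by −0.78, −2.40 and 0.94 on the deposited scale for arrays 1 and 2, 3 and 4, and 5 and 6. After normalization the same differences were −1.13, −3.43 and −0.39, so the sign for arrays 5 and 6 depended on the scale. The normalized change of −1.65 (SE 0.54) and the deposited change of −0.75 (SE 0.58) both carry this spread. The gene passed in 5 of 13 other settings, and leaving out any of 9 of the 12 arrays ended its call. Its normalized groups overlapped, at −2.70 to −1.29 with staurosporine and −5.12 to −2.11 after ascorbate.

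**Figure D3:**
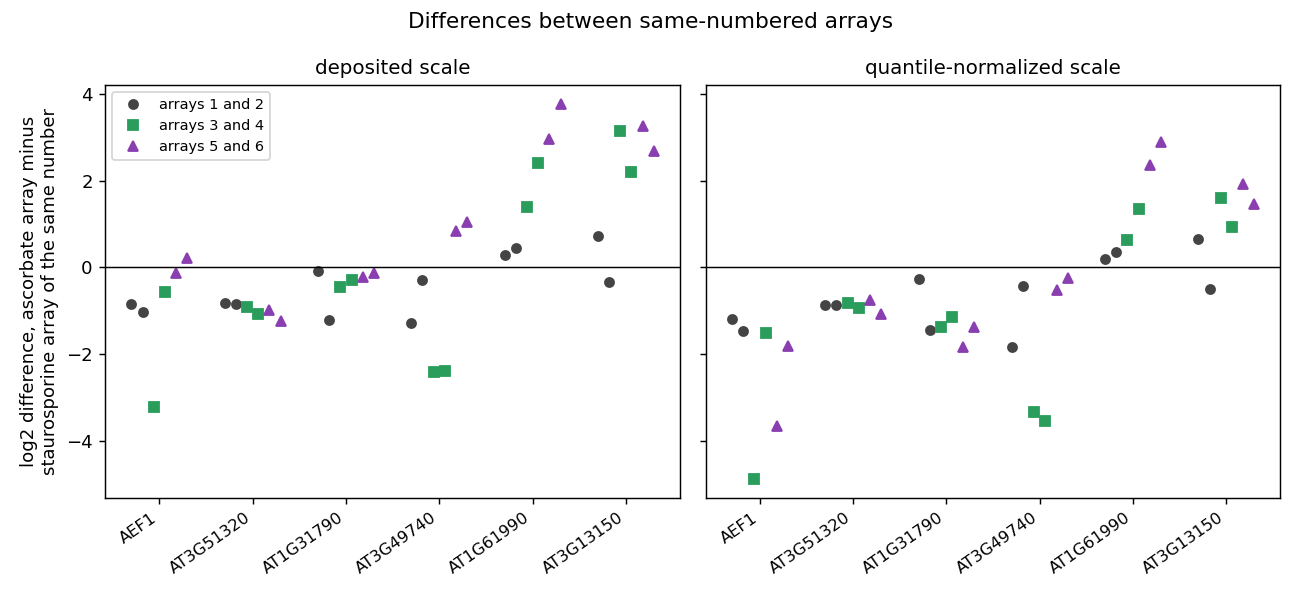
Log2 difference between the ascorbate and the staurosporine array of the same number for the 6 genes, on the deposited scale (left) and after quantile normalization (right), with a marker shape for each set of consecutive arrays. AT3G51320 stays between −0.83 and −1.24 as deposited, whereas AT3G49740 runs from −2.42 to 1.05, and AT1G61990 and AT3G13150 are closest to 0 on arrays 1 and 2.

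AT3G13150 is the PPR gene that read higher after ascorbate. With staurosporine it read 0.245 and 0.334 on arrays 1 and 2 and 0.0497 to 0.0941 on the other 4 arrays. After ascorbate it read 0.263 to 0.504 (median 0.433). The groups overlapped through staurosporine array 2, which lay above the lowest ascorbate array, while the other 5 staurosporine arrays lay below all ascorbate arrays. Levels were 0.142 ± 0.128 and 0.423 ± 0.0848 (SD, n = 3), a ratio of 2.98.

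The change of AT3G13150 was 1.01 (SE 0.28) after normalization and 1.94 (SE 0.47) on the deposited scale. Averages of consecutive arrays differed by 0.08 for arrays 1 and 2, 1.26 for 3 and 4, and 1.69 for 5 and 6 after normalization. On array number 2 ascorbate was lower, by −0.49. The change was 1.48 when arrays 1 and 2 of both groups were left out, a choice made after the data were seen. AT3G13150 passed without any 1 array, though not in the fit blocked by array number.

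AT1G61990, the mTERF gene, likewise read higher after ascorbate. It read 0.0672 to 0.585 with staurosporine (median 0.214) and 0.498 to 1.20 after ascorbate (median 0.712). Staurosporine array 1, at 0.585, was the reading that overlapped the ascorbate group. Levels were 0.263 ± 0.189 and 0.789 ± 0.238 (SD, n = 3), a ratio of 3.0. AT1G61990 was higher in all 6 same-numbered pairs on both scales, by 0.19 to 2.88 after normalization.

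The normalized change of AT1G61990 was 1.29 (SE 0.38), and the deposited change was 1.87 (SE 0.47). Its averages of consecutive arrays differed by 0.28 for arrays 1 and 2, 0.98 for 3 and 4, and 2.62 for 5 and 6. Consecutive staurosporine arrays differed by a ratio of up to 2.29. Without arrays 1 and 2 of both groups the change was 1.80. Leaving out staurosporine array 5, ascorbate array 5 or ascorbate array 6 ended the call, as did blocking by array number.

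For both AT3G13150 and AT1G61990 the smallest group difference lay in arrays 1 and 2, where the medians of the arrays were also closest. For staurosporine, arrays 1 and 2 had a median of 0.392, arrays 3 and 4 had 0.173 and 0.169, and arrays 5 and 6 had 0.228 and 0.227. The ascorbate medians were 0.437 and 0.431, 0.355 and 0.351, and 0.486 and 0.483. The part of these array medians in the rise of either gene was not tested.

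**Figure D4:**
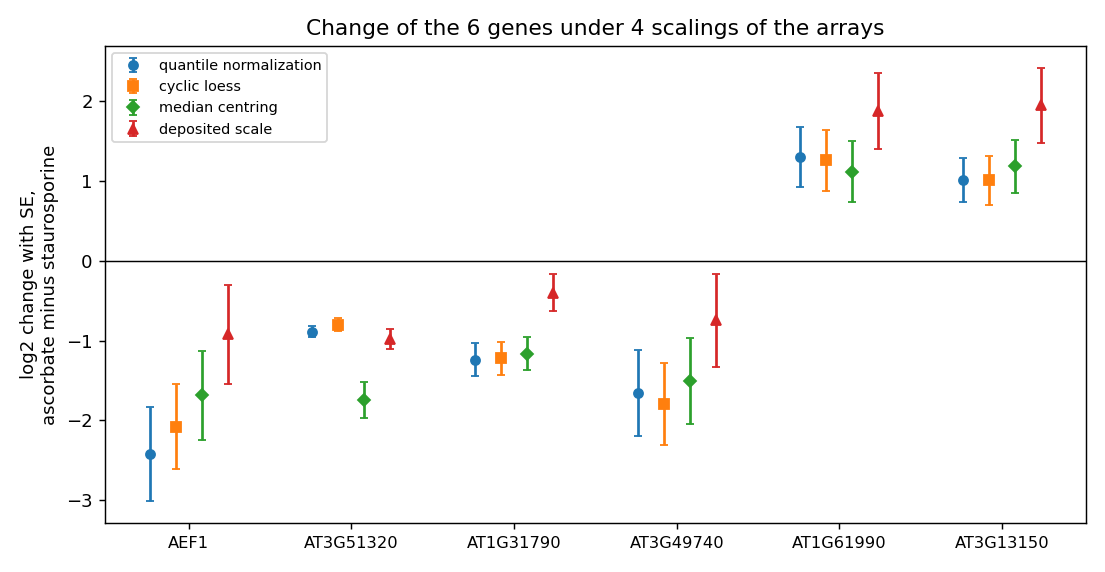
Log2 change of the 6 genes (ascorbate minus staurosporine) with its standard error from limma over 12 arrays, under 4 scalings of the arrays shown by marker shape. The sign of each gene is the same under all 4, while AEF1 ranges from −0.92 on the deposited scale to −2.42 after quantile normalization.

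The size of a change depended on the scaling. Median centring gave −1.74 for AT3G51320, against −0.89 after quantile normalization, and −1.69 for AEF1, against −2.42. The deposited scale moved the median of all features by 0.72 and that of features without a zero by 0.49. On that scale the falls of AEF1, AT1G31790 and AT3G49740 were smaller and the rises of AT1G61990 and AT3G13150 larger. The fall of AT3G51320 was larger there, at −0.98. Cyclic loess gave −2.08 for AEF1, −1.22 for AT1G31790, −1.79 for AT3G49740, 1.26 for AT1G61990 and 1.01 for AT3G13150. These lay within 1 standard error of the quantile-normalized changes, and that of AT3G51320, at −0.80, did not. Normalized readings did not overlap between the groups for AEF1, AT3G51320 and AT1G31790, and 8.46% of all features were lower after ascorbate in the same way.

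The 6 genes did not vary as 1 set within the groups. Over the deviations of the 12 arrays from their group means, Pearson correlations between the 15 pairs of genes ran from −0.38 to 0.50, and 6 were above 0. The highest were 0.50 for AEF1 with AT1G31790 and 0.46 for AT1G61990 with AT3G13150, and AT3G51320 had −0.29 with AEF1 and −0.35 with AT1G31790. Consecutive arrays resemble each other, so these values rest on fewer independent points than 12 and are given without a test.

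Among 509 named genes without a zero, those whose deviations were most like each member were listed as a description of likeness over 12 arrays. They are the highest of many candidates, and consecutive arrays are alike, so the size of r is not read as a result. For AEF1 these were AT1G07850 (r = 0.87) and AT4G21820 (0.84), and for AT3G51320 AT4G21770 (0.78) and AT2G39360 (0.76). For AT1G31790 they were AT1G65090 (0.81) and AT5G44000 (0.73), and for AT3G49740 RALFL32 (0.90) and AT2G38950 (0.88). For AT1G61990 they were AT1G51350 (0.81) and AT1G13370 (0.80), and for AT3G13150 AT1G50020 (0.90) and the MADS-box gene AGL103 (0.80). Without removing the group means, r with the same member was −0.09 for AT4G21820, 0.04 for RALFL32 and −0.04 for AT1G51350. For the other genes named it ran from 0.40 to 0.94. None of these was an organelle RNA gene of the list described next, of which at most 12 could be among the 509, so nothing is read from that.

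Other genes of organelle RNA metabolism came from a list of 141, with 131 named by hand and 10 found by gene name. The list was drawn up with earlier results of these data known. Only 12 of its genes could be read here through a probe assigned to 1 gene. In the fit over 12 arrays 2 of these 12 rose and 0 fell (limma, adjusted p under 0.05), against 14.0% and 14.1% of all features, and 6 of the 12 had an unadjusted p under 0.05, against 39.4% of all features. The median change of the 12 was 0.51, and that of all features was 0. On the deposited scale 5 rose and 0 fell, against 31.8% and 6.05% of all features, with a median of 0.99 against 0.72 over all features. The 6 genes above, chosen with the contrast known and all past the threshold, were left out of this list. Its counts therefore do not describe the families as a whole. The list is small and nothing particular to it is read from these values.

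AT4G09040, which encodes an RNA-binding protein with an RNA recognition motif, read 0.139 to 0.469 with staurosporine and 0.359 to 0.627 after ascorbate. It rose by 0.53 (SE 0.17, limma adjusted p = 0.0421), was higher in all 6 same-numbered pairs, and had adjusted p-values of 0.0312 in the fit blocked by array number and 0.146 over averages of consecutive arrays. AT4G09620, an mTERF gene, read 4.79 to 8.95 and 7.89 to 12.7, and rose by 0.90 (SE 0.26, limma adjusted p = 0.0255). Its change was −0.17 after median centring, and its adjusted p was 0.116 in the blocked fit and 0.242 over averages. Over the 13 other settings the adjusted p ran from 0.00722 to 0.276 for AT4G09040 and from 0.0131 to 0.65 for AT4G09620. Leaving out any of 10 single arrays ended the call of AT4G09040, and any of 3 that of AT4G09620.

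Of the 7 mTERF genes of the list with a single-gene probe, AT4G09620 was the 1 that passed. mTERF9 (AT5G55580) read 0.146 to 0.796 and 0.473 to 0.954, a change of 0.64 (SE 0.29, limma adjusted p = 0.123). AT3G46950 read 0.296 to 0.964 and 0.755 to 1.15, a change of 0.63 (SE 0.22, adjusted p = 0.0513, and 0.0318 in the blocked fit). AT3G18870 read 0.245 to 0.346 and 0.0248 to 0.435, a change of −1.53 (SE 0.54, adjusted p = 0.0567). mTERF9 and AT3G46950 thus had positive and AT3G18870 a negative change, and none of these 3 passed in the fit over 12 arrays.

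AT1G62010 lies close to AT1G61990, with 1 protein-coding gene between them in the TAIR10.1 annotation, and AT1G62150 lies further along with 14 between. AT1G62010 read 0.2 to 0.768 and 0.668 to 1.21, a change of 0.50 (SE 0.25, limma adjusted p = 0.157). AT1G62150 read 0.649 to 1.51 and 0.779 to 1.51, a change of −0.10 (SE 0.21, adjusted p = 0.772). Neither of these neighbours of AT1G61990 passed. The platform annotation also places AT1G61990 together with 3 other loci, AT3G46950 among them, on a further probe that is not used here, so how far related mTERF transcripts contribute to the AT1G61990 reading is uncertain and was not tested. AT1G79220, the remaining mTERF gene of the list, was listed at 0 on array 3 of each group. It read up to 1.03 and 1.67 on the others, with a limma adjusted p of 0.938.

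**Figure D5:**
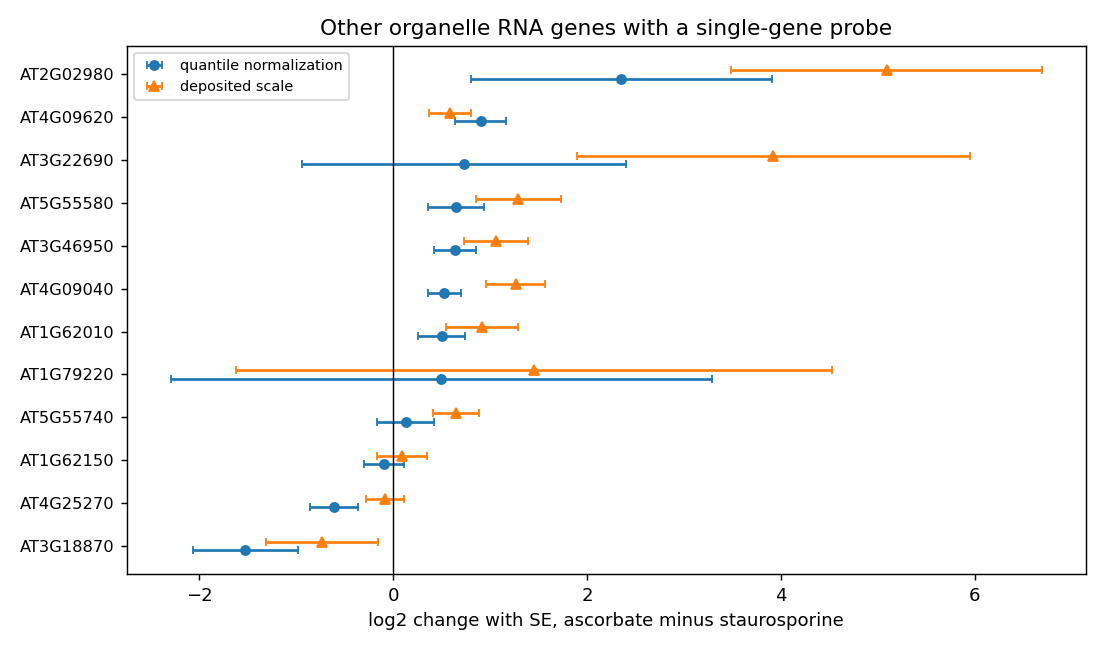
Log2 change (ascorbate minus staurosporine) with its standard error from limma over 12 arrays for 12 other organelle RNA genes, after quantile normalization (circles) and on the deposited scale (triangles). AT4G09040 and AT4G09620 passed after normalization, and the widest errors belong to AT1G79220, AT3G22690 and AT2G02980, which were listed at 0 on some arrays.

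None of the 4 PPR genes of the list with a single-gene probe passed in the fit over 12 arrays. That count leaves out the PPR genes described above, which were chosen with the contrast known and passed. It also leaves out any PPR gene that the list does not name, so it says nothing on the family. OTP70 (AT4G25270), linked to splicing of a chloroplast transcript, read 0.461 to 0.882 and 0.394 to 0.696, a change of −0.61 (SE 0.25, limma adjusted p = 0.0901, and 0.0499 in the blocked fit). CRR21 (AT5G55740), an editing factor for a transcript of the chloroplast NADH dehydrogenase-like complex, read 0.305 to 0.527 and 0.401 to 0.878, a change of 0.13 (SE 0.30, adjusted p = 0.793). OTP85 (AT2G02980), also an editing factor, was listed at 0 throughout the staurosporine group and on 4 ascorbate arrays. AT3G22690 was listed at 0 on 5 staurosporine and 4 ascorbate arrays, so no level is compared for either gene. OTP70 and CRR21 thus gave changes of opposite sign, neither past the threshold.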

How the data were processed

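The authors deposited intensities for 12 arrays of 3439 probes, on a linear scale from 0 to 100; for scanner, background correction, normalization and genome build, the sources used here state nothing. Probes were named through the platform annotation (692 with 1 gene, 870 with several, 1877 with none listed; only the first kind is named), and 690 of 692 matched the TAIR10.1 gene table by Entrez number. Each zero took the smallest positive intensity of its array, log2 was taken, arrays were quantile-normalized, and probes of 1 locus were averaged, leaving 3438 features. Groups and numbers come from the labels. The comparison used limma (version 3.58.1, R 4.3.3): a linear model with no block and moderated statistics, 2-sided, with Benjamini-Hochberg adjustment over all features and a threshold of 0.05. It was tested on simulated data with independent noise on each array. Since consecutive arrays are correlated here, that test cannot show how the fit behaves under such correlation. The number of arrays limits the precision.

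Deviations from the group mean correlated between same-numbered arrays at 0.184, 0.182, 0.315, 0.347, 0.106 and 0.157, each over 0.1. By that cutoff the numbers were treated as a possible pairing, which no label gives. For 5 of the 6 staurosporine arrays, the ascorbate array of the same number was the most correlated of its group. How far the likeness of consecutive arrays enters these values was not tested. The main fit has no block, so its standard errors and adjusted p-values leave any such pairing out. In the limma fit blocked by array number, 3 of the chosen genes passed. There AT1G61990, AT3G13150 and AT3G49740 had adjusted p-values of 0.0765, 0.0779 and 0.0856 and did not pass. Percentile ranks are over all probes of an array, with ties averaged. Other settings tried were cyclic loess, median centring, no normalization, pseudocounts of 0.000225 and 0.0439, a filter on the dimmest 25% of features, blocking by array number, averages of consecutive arrays, consecutive arrays as a random block and each array left out; combinations of these, the larger pseudocount and the fit without arrays 1 and 2 were added after the data were seen. The members and lists were chosen with earlier results of these data known. The list of other organelle RNA genes holds 131 loci named by hand and 10 found by gene name. Genes named from it are all 12 measured ones, where the rule asked for those that passed, so the others were named after their values were seen. The most similar protein of each member was to be named too, and was not, since protein sequences were not used here.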

Additional observations from a re-analysis of the deposited data

Results flagged for a closer look

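By Dixon's test of the highest and lowest reading in each group of 6, no array was singled out for the 6 genes, on either scale. AEF1 on ascorbate array 3, at 0.010 against 0.0961 to 0.186 on the other 5, came below the critical value. The test looks for 1 reading apart from the rest, so consecutive arrays that deviate together can hide each other. AT3G49740 on ascorbate arrays 5 and 6, at 0.353 and 0.385, could not be singled out this way. Among the 12 other organelle RNA genes, 9 readings were singled out, out of 72 groups of values examined over both sets of genes. For independent readings chance gives about 5% of such groups, whereas consecutive arrays here are alike. AT1G62010 read 1.21 on ascorbate array 5, against 0.668 to 0.857 on the other 5. OTP85 (AT2G02980) read 0.119 on ascorbate array 4, against 0 to 0.0287. AT3G22690 read 0.0151 on staurosporine array 6, against 0 on the others, and in normalized log2 values it stood at −6.42 there and at −3.98 on ascorbate array 4. AT1G79220, listed at 0 on array 3 of each group, stood at −12.55 on both after normalization, which is the value a zero takes. AT3G18870 was at −5.46 on ascorbate array 4, against −3.14 to −1.85, and AT4G09040 at −1.93 on ascorbate array 2, against −1.32 to −1.09.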

How the results depend on the processing

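Of the 6 genes, 6 passed in the fit over 12 arrays, 3 on the deposited scale (also with the array number as a block), 3 with the array number as a replicate block, 2 with consecutive arrays as a random block, 1 over averages of consecutive arrays, and 0 over averages with the pair as a block or on the deposited scale, where 3 had an unadjusted p under 0.05 in each case. Leaving out 1 array, with its consecutive partner kept, gave 4 to 6. Over all features 480 were higher and 486 lower. The counts were 1093 and 208 on the deposited scale (84.0% higher against 49.7%), 1138 and 203 there with the block, 515 and 755 after median centring, 296 and 262 with the random block, 31 and 22 over averages, and 1 and 0 over averages with the pair as a block or on the deposited scale (713 and 913 features with an unadjusted p under 0.05). Without 1 array they were 405 to 479 and 388 to 498. Among the 12 other organelle RNA genes 2 were higher and 0 lower. The counts higher were 5 on the deposited scale, 4 there with the block, 1 with the random block, and 0 after median centring and over averages, averages with the pair as a block and averages on the deposited scale (limma, with an unadjusted p under 0.05 for 5, 2, 1 and 2 of the 12 in either direction). The counts lower were 2 after median centring and 1 with loess, without the dimmest 25% of features, with the replicate block and with the larger pseudocount. Without 1 array they were 0 to 4 and 0 to 2, with 4 higher without staurosporine array 1, and 0 without staurosporine array 5 or 6. The cause of these shifts was not tested, and averages also leave fewer samples.

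No gene of the 6 changed sign in any setting, though blocks, averages and the filter on dim features could not change it on a given scale. Of the other genes, the change of AT1G62150 turned to 0.094 on the deposited scale, with or without averages or the block, and to 0.046 with loess. AT4G09620 turned to −0.17 and CRR21 (AT5G55740) to −0.11 after median centring, and CRR21 to −0.23 without arrays 1 and 2. Without 1 array, AT1G62150 ran from −0.18 to 0.027, CRR21 from −0.014 to 0.36, AT1G79220 from −1.44 to 2.53 and AT3G22690 from −0.63 to 1.76. For AEF1, AT1G31790 and AT3G49740 the largest ratio between consecutive arrays exceeded the ratio of the group levels.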
